A study of Mus musculus with 11 samples.

Results

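The transcripts described here are the processed pseudogenes that held reads in bulk RNA sequencing of KP1 cells, a mouse small cell lung cancer (SCLC) line that lacks functional Rb and p53. A transcript was included when GENCODE M21, an annotation of the mouse genome GRCm38 (mm10), types it as a processed pseudogene or a transcribed processed pseudogene and when at least 1 of the 5 libraries gave it 10 or more estimated reads. Of 9719 such transcripts in the deposited files, 564 passed, of which 532 are processed and 32 are transcribed processed pseudogenes, each from a different gene. The data were 2 libraries of untreated control cells (replicates 2 and 3) and 3 libraries of irradiated cells (replicates 1, 2 and 3) that received 5 Gy, with pellets taken 24 h later. All were grown in RPMI-1640 with bovine growth serum, so the results describe 1 cell line in culture without its tumour. The labels do not say whether libraries of a group came from separate cultures, and p values then measure the spread between these samples, which may be technical.

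A processed pseudogene arises when the messenger RNA of a gene is copied back into DNA and inserted elsewhere in the genome. Such a retrocopy usually lacks introns and a promoter of its own, and abundant messengers of growing cells, above all those of ribosomal proteins, have left many copies in mammalian genomes. Where the copy is recent it still matches the parent messenger nearly base for base. A program that divides reads among transcripts then has few or no bases by which to tell the 2 apart.

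The sequences below show how far that likeness goes for the pseudogenes on which the results turn. They are stretches of GENCODE M21 transcripts on GRCm38 that match the coding part of the parent, written 5′ to 3′, with capitals at the bases that differ between pseudogene and parent. Eif4a-ps4 (1218 bases, stretch at chr1:60704420-60704509, plus strand) differs from Eif4a1 at 1 base over its whole length, G534A, where the parent base is given first and positions count from the 5′ end of the pseudogene.
Eif4a-ps4: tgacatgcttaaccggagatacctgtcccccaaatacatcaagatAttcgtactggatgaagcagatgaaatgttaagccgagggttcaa
Eif4a1: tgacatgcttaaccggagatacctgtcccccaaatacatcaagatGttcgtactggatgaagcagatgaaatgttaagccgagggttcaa
Rps13-ps1 (538 bases, stretch at chr8:87048083-87048172, plus strand) differs from Rps13 at 2 bases over 522 aligned bases, T442C and A460G.
Rps13-ps1: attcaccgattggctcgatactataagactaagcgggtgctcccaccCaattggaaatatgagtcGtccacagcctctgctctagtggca
Rps13: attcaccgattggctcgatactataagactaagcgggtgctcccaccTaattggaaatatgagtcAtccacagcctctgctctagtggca
Rps3a2 (792 bases, stretch at chr14:88123161-88123280, minus strand) differs from Rps3a1 at 4 bases, T216C, T534C, A645T and T668C, of which the stretch holds T534C and A645T.
Rps3a2: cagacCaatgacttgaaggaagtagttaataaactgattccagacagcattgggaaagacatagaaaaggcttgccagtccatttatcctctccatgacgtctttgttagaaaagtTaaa
Rps3a1: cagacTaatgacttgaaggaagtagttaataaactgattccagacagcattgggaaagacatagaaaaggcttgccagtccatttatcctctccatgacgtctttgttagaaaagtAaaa
Gm10052 (chr9:123690103-123690192, minus strand), Rpl10a-ps1 (chr1:64994515-64994604, minus strand) and Gm2223 (chrX:33505661-33505750, plus strand) lie whole and without a difference inside a transcript of Hnrnpa1, Rpl10a and Eif2s3x, so their first 90 bases are shown without capitals.
Gm10052 and Hnrnpa1: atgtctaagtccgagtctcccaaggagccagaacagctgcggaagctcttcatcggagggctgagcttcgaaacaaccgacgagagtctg
Rpl10a-ps1 and Rpl10a: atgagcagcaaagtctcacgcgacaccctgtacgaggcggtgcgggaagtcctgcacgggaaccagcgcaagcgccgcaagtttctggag
Gm2223 and Eif2s3x: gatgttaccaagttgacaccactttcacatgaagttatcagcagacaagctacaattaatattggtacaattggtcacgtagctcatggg
Gm6565 (chr6:100604683-100604772, plus strand) and Gm6361 (chr15:31446728-31446817, minus strand) share their first 90 bases with each other and with Ube2v2.
Gm6565, Gm6361 and Ube2v2: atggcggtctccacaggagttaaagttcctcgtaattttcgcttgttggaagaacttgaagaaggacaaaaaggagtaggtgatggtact
Gm46223 (chr10:50422719-50422808, minus strand) is shown as a contrast, since 91.3% of its 31-base words occur in no other transcript, although 218 of its 675 bases match a Chd9 transcript at 95% identity.
Gm46223: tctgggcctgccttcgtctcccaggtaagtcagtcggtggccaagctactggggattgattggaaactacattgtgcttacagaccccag

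A parent was taken as the protein-coding gene whose transcript matched the pseudogene best over 50% or more of its length. Only matches on the same strand counted, so a closer match on the opposite strand was passed over. Drawn from 343 genes, parents were found for 531 of the 564 pseudogenes. For 450 of them the match lay in the coding part of the parent, and for 81 it lay outside it. A match of at least 95% identity over at least 80% of the pseudogene, called near-identical here, was found for 220, and 60 matched their parent without a difference over their whole length. As a check of the parents, 48 of the 60 pseudogenes whose symbols carry a parent's name and the ending -ps were assigned that same gene. In the genome, 109 lay in an intron of another gene on the opposite strand and 74 on the same strand, 52 overlapped an exon, and 329 touched no other annotated gene. The transcripts were short, with a median of 820 bases against 2492 bases for protein-coding transcripts under the same minimum of reads, and 529 had a single exon.

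The libraries held 21185956 to 31036317 estimated reads, of which the pseudogenes took 0.499% to 0.601%. All 7 neuroendocrine SCLC markers were above 1 TPM (an abundance scaled for length and for the total within a library), with a summed level of 2516 to 2701 TPM, while the 5 leukocyte markers summed to 1.19 to 6.91 TPM, mostly from Cd68. The fibroblast markers summed to 36.7 to 67.3 TPM, mostly from Pdgfra and with Col3a1 at 0, and the endothelial markers to 0.314 to 1.55 TPM. Control replicate 2 stood apart in Col1a1, at 13.5 TPM against at most 0.104 TPM elsewhere. Reads of irradiated libraries fell on shorter transcripts, with a mean length per read of 3625 to 3998 bases against 4729 to 5463 bases in the controls.

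Control libraries held reads for more of these pseudogenes than irradiated libraries did. With 10 reads as the minimum, 420 and 320 of the 564 were read in control replicates 2 and 3, and 223, 188 and 249 in irradiated replicates 1, 2 and 3. The groups did not overlap, and they still did not after all reads were scaled to the depth of the smallest library, when the numbers were 311 and 280 in the controls and 200, 188 and 215 in the irradiated libraries. Over transcripts of all types the groups were likewise apart, with 37394 and 39573 at 10 reads or more in the controls against 31855, 33420 and 34917 in the irradiated libraries. Since the minimum of reads chose the transcripts, these numbers are a description without a test. Of the 564, 131 were read in every library and 257 in a single library, which was control replicate 2 for 155 of them. Most were low, with 327 reaching 20 reads, 107 reaching 100 and 31 reaching 1000 reads in some library. At the limit itself, Gm28688, Gm12309 and Gm9311 had a highest value of 10 reads and were included, while Gm14659 with 9.57, Gm47932 with 9.45 and Gm5417 with 9.43 reads were not. In bulk RNA, fewer cells that transcribe a gene and less RNA in each cell cannot be told apart.

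**Figure D1:**
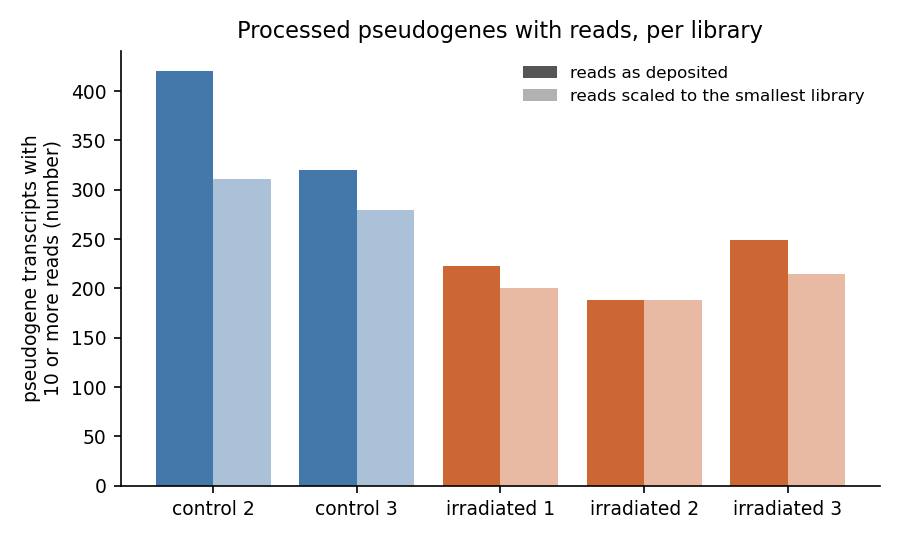
Number of processed pseudogene transcripts with 10 or more reads (vertical axis) in each library (horizontal axis), for reads as deposited (dark bars) and after scaling to the smallest library (pale bars), with controls in blue and irradiated libraries in orange. Both control libraries stand above all 3 irradiated libraries on either scale, 311 and 280 against 188 to 215 after scaling.

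Many of the pseudogenes were read in 1 library and absent from another. At 10 reads or more in 1 library and 0 reads in another, 287 of the 564 (50.9%) were on in one place and off elsewhere, against 41.1% of all 51281 transcripts under the same minimum. The pattern often separated replicates of the same group, as 115 pseudogenes were on and off between the 2 controls and 52 among the irradiated libraries, 155 in all. These shares (20.4%, 9.22% and 27.5%) were close to or below those of all transcripts (19.9%, 16% and 31.1%). The remaining 132 (23.4%, against 10% of all transcripts) were on and off only between a control and an irradiated library. A complete split of the groups was rare, with 7 on in both controls and at 0 in all irradiated libraries and 5 the other way round (1.24% and 0.887%, against 0.647% and 0.618% of all transcripts). With 50 reads as the minimum for on, the share on and off anywhere was 23.1%, against 21.1% of all transcripts. The share on and off only between the groups was then 6.94% against 6.84%, and 7.48% against 5.13% with 100 reads. With 10 reads, 180 were on and off after scaling to the smallest library and 122 without control replicate 2, the deepest library. Scaling by itself moves reads under the minimum, and the part of depth was not tested.

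The pattern was also found at higher reads, where 23 of the 107 pseudogenes with at least 100 reads in a library (21.5%, against 14% of all transcripts) had 0 reads in another. Of these 23, 21 were near-identical to their parent and 22 had 10% or less of their 31-base words to themselves, the exception being Gm3325 with 43%. The same shares were not counted among all 107. The minimum of 100 reads by itself favours such pseudogenes. Among all 564, the median highest value was 193.5 reads without own words and 18 reads with over 50%. Parents of the 23 were read throughout, with 111 reads or more in every library for the 21 coding copies. The lowest value was that of Fv1, the parent of Gm48113. On the opposite strand, Gm48113 matched protein-coding Tmem72 at 99.4% identity over 1028 bases. Replicates of 1 group were split for 20 of the 23 with 10 reads as the minimum for on, and for 15 with 100 reads (14% of the 107, against 8.89% of all transcripts).

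The pseudogene with the most reads in this pattern was Eif4a-ps4, a copy of Eif4a1, which encodes the RNA helicase of translation initiation. It held 4024 and 3362 reads in the controls and 1706, 0 and 2107 reads in irradiated replicates 1, 2 and 3. Irradiated replicate 2 alone was at 0, while Eif4a1 held 26558 reads there and 29035 and 28679 in the other irradiated libraries, against 18860 and 19299 in the controls. The same library was at 0 for Rpl10a-ps1, copied from a gene of the large ribosomal subunit, with 2052 and 2024 reads in the controls and 1876 and 1745 in irradiated replicates 1 and 3. Rpl10a itself had its highest value, 13850 reads, in irradiated replicate 2. Rps13-ps1, copied from a gene of the small ribosomal subunit, repeated this with 651 and 651 reads in the controls and 1503, 0 and 506 in the irradiated libraries, and Rps13 again peaked in irradiated replicate 2 at 8482 reads. None of the 3 pseudogenes passed the test, with log2 fold changes of −1.47 ± 1.21 (SE) for Eif4a-ps4, −0.68 ± 1.21 for Rpl10a-ps1 and 0.15 ± 1.25 for Rps13-ps1 and edgeR adjusted p values of 0.392, 0.711 and 0.942 (n = 2 controls and 3 irradiated libraries here and in all fits). When the reads of pseudogene and parent were added, the 5 sums of the Eif4a1 pair ran from 22661 to 30786. The log2 fold changes of the 3 sums were 0.52 ± 0.15, 0.86 ± 0.17 and 1.16 ± 0.20 (edgeR adjusted p = 0.0404, 0.0115 and 0.0085). The fitted Rps13 sum also holds Rps13-ps2, another copy, with 438 reads in control replicate 2 and 0 elsewhere.

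Gm10052, Gm2223 and Gm15500 were read in both controls and in no irradiated library. Gm10052, a copy of the splicing regulator gene Hnrnpa1 that lies in an intron of Gm17200 on the opposite strand, held 2757 and 1569 reads in the controls and 0 in all 3 irradiated libraries, at least 637-fold lower against a floor of 3 reads per irradiated library. Hnrnpa1 held 42420 and 35337 reads in the controls and 31952, 29185 and 39581 in the irradiated libraries, and its groups overlapped. Its log2 fold change was −0.06 ± 0.16 alone and −0.14 ± 0.16 with the reads of Gm10052 and of another copy, Gm29241, added (edgeR adjusted p = 0.809 and 0.541). Gm2223 on chromosome X copies Eif2s3x, which encodes a subunit of the factor that brings the initiator transfer RNA to the ribosome, and held 509 and 269 reads in the controls and 0 in the irradiated libraries, at least 114-fold lower. Eif2s3x overlapped between groups at 12346 and 9612 against 10401, 7981 and 11801 reads, and the sum with Gm2223 had a log2 fold change of −0.03 ± 0.17 (edgeR adjusted p = 0.91). Gm15500, a copy of Rpl5 of the large ribosomal subunit, held 2606 and 3009 reads in the controls and 0 in the irradiated libraries, at least 837-fold lower. Another transcript of the same pseudogene gene went the other way, with 10043 and 8050 reads in the controls and 25518, 18257 and 20674 in the irradiated libraries, so that the gene as a whole had a log2 fold change of 1.02 ± 0.18 (edgeR adjusted p = 0.0104). Rpl5 held 1180 and 1296 reads in the controls and 2065, 1813 and 1948 in the irradiated libraries. Adding the reads of the pseudogene transcript turned the log2 fold change of Rpl5 from 0.81 ± 0.16 to −0.91 ± 0.16 (edgeR adjusted p = 0.0124 and 0.00861), both under the fold threshold. That sum leaves out the other Gm15500 transcript, which held more reads than Rpl5 in every library and was higher after irradiation. The changed sign therefore belongs to a partial sum.

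**Figure D2:**
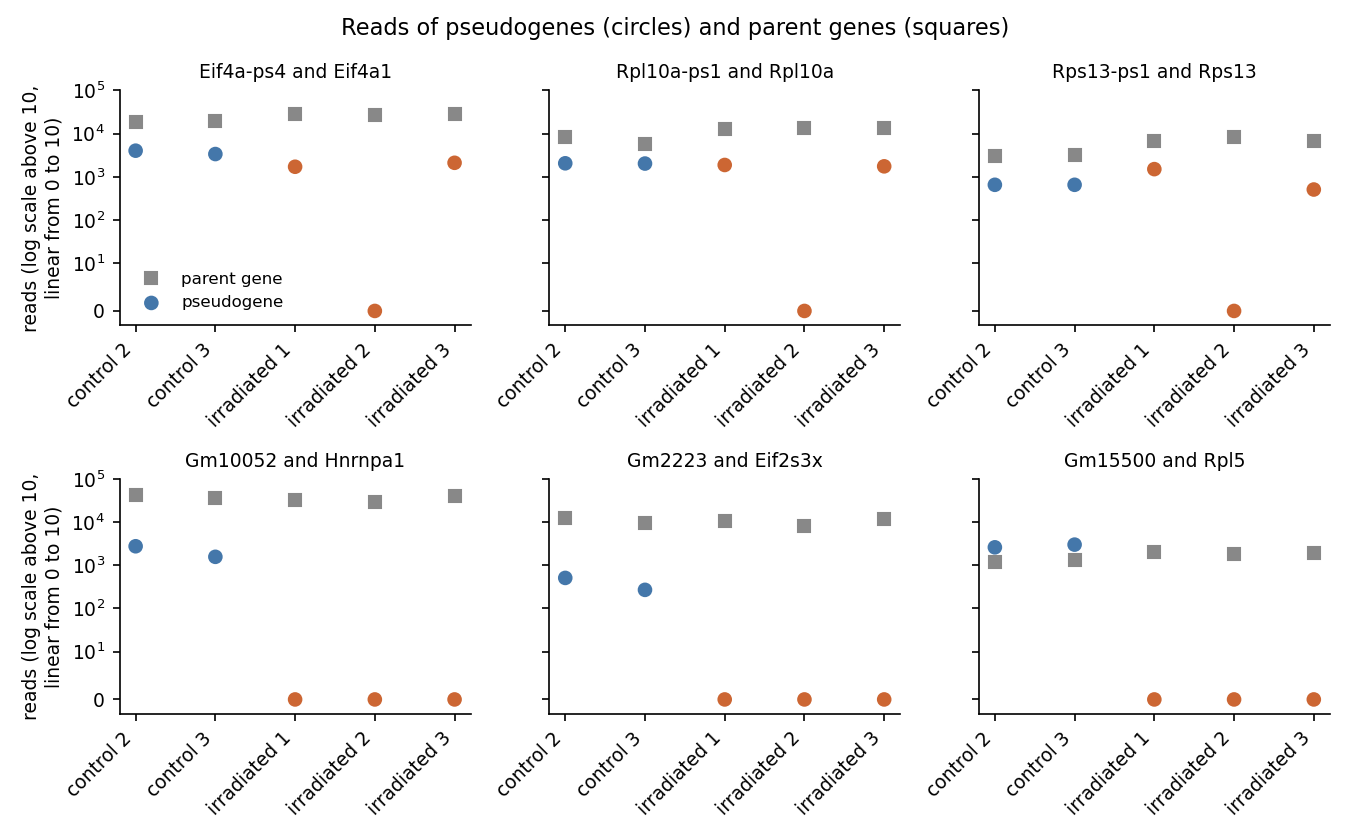
Estimated reads (vertical axis, logarithmic above 10 and linear from 0 to 10) of 6 pseudogenes (circles, blue for controls and orange for irradiated libraries) and their parent genes (grey squares) in each library. Eif4a-ps4, Rpl10a-ps1 and Rps13-ps1 are at 0 in irradiated replicate 2 alone, Gm10052, Gm2223 and Gm15500 in all 3 irradiated libraries, and every parent is read in every library.

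The other pseudogenes named for this pattern differed in where they were read. The Rps2-ps10 transcript, copied from a small-subunit ribosomal protein gene, held 941 reads in control replicate 3 and 0 in the other 4 libraries. Its parent Rps2 held 14397 to 24893 reads throughout. Another transcript of the Rps2-ps10 gene was read in every library, at 5707 and 3347 reads in the controls and 6122, 5935 and 6597 in the irradiated libraries. The Ppp1ccb transcript, copied from the gene for a catalytic subunit of a protein phosphatase, held 738 reads in control replicate 3, 117 in irradiated replicate 1 and 0 elsewhere. Its parent Ppp1cc held 7992 to 10378 reads. Another transcript of the Ppp1ccb gene held 283 and 308 reads in the controls and 238, 290 and 306 in the irradiated libraries. Gm15725, which lies inside an exon of Lrrc58 on the same strand and has no 31-base word of its own, held 596 and 244 reads in the controls and 46, 0 and 74 in the irradiated libraries. It was called lower (log2 fold change −3.29 ± 0.92, edgeR adjusted p = 0.0343). The call was lost with DESeq2 (adjusted p = 0.209) and with the transcript length offset (edgeR adjusted p = 0.0585). Lrrc58 went from 17269 and 11681 to 5219, 3895 and 7164 reads, with a log2 fold change of −1.27 ± 0.21 (edgeR adjusted p = 0.00922) that stayed under the threshold of 1.5. Gm12896, a 226-base transcript without a parent, held 266 and 0 reads in the controls and 891, 114 and 781 in the irradiated libraries. Gm12895, of the same length and also on chromosome 4, held 15793 and 5457 reads in the controls and 8981, 5846 and 12930 in the irradiated libraries.

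Copies of the same parent could also trade places, as seen in pairs chosen after their values were known. Gm6565 and Gm6361 both copy Ube2v2, the gene of a partner of ubiquitin-conjugating enzymes. Gm6565 held 0 reads in both controls, 155 and 137 in irradiated replicates 1 and 2 and 0 in irradiated replicate 3. Gm6361 was the mirror image, with 45 and 108 reads in the controls, 0 in irradiated replicates 1 and 2 and 137 in irradiated replicate 3. No library held reads for both, and their sum was 45, 108, 155, 137 and 137 reads. Gm6741, a copy of Nanp of sialic acid synthesis, followed the libraries of Gm6565 with 215 and 273 reads in irradiated replicates 1 and 2 and 0 elsewhere (1330 bases as quantified, 747 as annotated), while Nanp held 196 to 426 reads. Gm5537, a copy of the glycolytic gene Pgk1, was on in control replicate 2 (477 reads) and irradiated replicate 3 (339 reads) and at 0 in the other 3, and Pgk1 held 10029 to 25031 reads.

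The pseudogenes with the highest levels were read in every library. By mean TPM they were Gm12895, Gm7536, Rpl27-ps3, Rps3a2, Rpl31-ps8 and Gm10123. Gm12895 stood far above the rest at 27960 and 10040 TPM in the controls and 14690, 10260 and 20040 TPM in the irradiated libraries, with groups that overlapped (log2 fold change −0.05 ± 0.39, edgeR adjusted p = 0.932). It is a short transcript, as given above, and TPM is scaled for length, so its rank by TPM is not a rank by reads. By reads, Gm48368, described below, was the highest. Rps3a2 and its parent Rps3a1, of the small ribosomal subunit, differ at the 4 bases given above, yet the pseudogene was at 1153 and 1280 TPM in the controls and 2496, 2019 and 1970 TPM in the irradiated libraries and the parent at 31.01, 37.7, 72.1, 70.2 and 68.7 TPM. Rps3a2 held 95.4% to 96.5% of the reads of the pair in the 5 libraries. Its groups did not overlap (log2 fold change 1.10 ± 0.18, edgeR adjusted p = 0.00919), nor did those of Rps3a1 (1.31 ± 0.18, adjusted p = 0.00849). Rpl27-ps3 held 76.4% to 87.3% of the reads it shares with Rpl27, though its quantified transcript has 475 bases and the annotated one that was matched has 411, as 9 of the 564 differ in length in this way, and Gm7536 held 57.2% to 61.9% of those it shares with Rpl27a, both of the large ribosomal subunit. Gm10123, a copy of the cyclophilin A gene Ppia, held 20.9% to 23.4%, and Rpl31-ps8 held 35.9% to 50.3%. Among the 87 coding copies with at least 100 reads, 10 held over 50% of the reads of their pair in every library and 30 held under 10% in every library.

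How much of a sequence is its own went with where the reads were. For each pseudogene, the share of its 31-base words that occur in no other transcript was counted, 31 bases being the usual word length by which reads are matched. The 76 pseudogenes without any such word summed to 1372 and 1629 RPM (reads scaled to the library total) in the controls and 2792, 2735 and 2205 in the irradiated libraries. The 278 pseudogenes with over 50% of their words to themselves summed to 331 and 292 RPM in the controls and 161, 154 and 156 in the irradiated libraries. Both sums separated the groups, in opposite directions. The second class held 211 and 141 at 10 reads or more in the controls against 74, 58 and 76 in the irradiated libraries, although its median highest value was only 18 reads. Pseudogenes with above 0 to 10% own words numbered 89. They held 1640 and 1440 RPM in the controls and 2151, 1638 and 1860 in the irradiated libraries, so the groups overlapped. The class between, from 10 to 50% own words, held 2669 and 1628 RPM in the controls and 849, 891 and 1183 in the irradiated libraries, but most of it was 1 pseudogene, Gm48368, and without it (chosen after its values were seen) the other 120 held 214 and 251 RPM against 264, 281 and 246, so the groups overlapped. Among those with over 50% own words, none reached 100 reads in 1 library and 0 in another. How many of that class reached 100 reads at all was not counted. Gm46223, whose first bases are shown above, has 91.3% own words and went from 3023 and 2482 to 1023, 857 and 1211 reads, a log2 fold change of −1.27 ± 0.14 (edgeR adjusted p = 0.00825). The Chd9 transcript that matches part of it held 1011 and 1003 reads in the controls and 393, 434 and 585 in the irradiated libraries. Gm46223 was chosen after its values were seen.

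**Figure D3:**
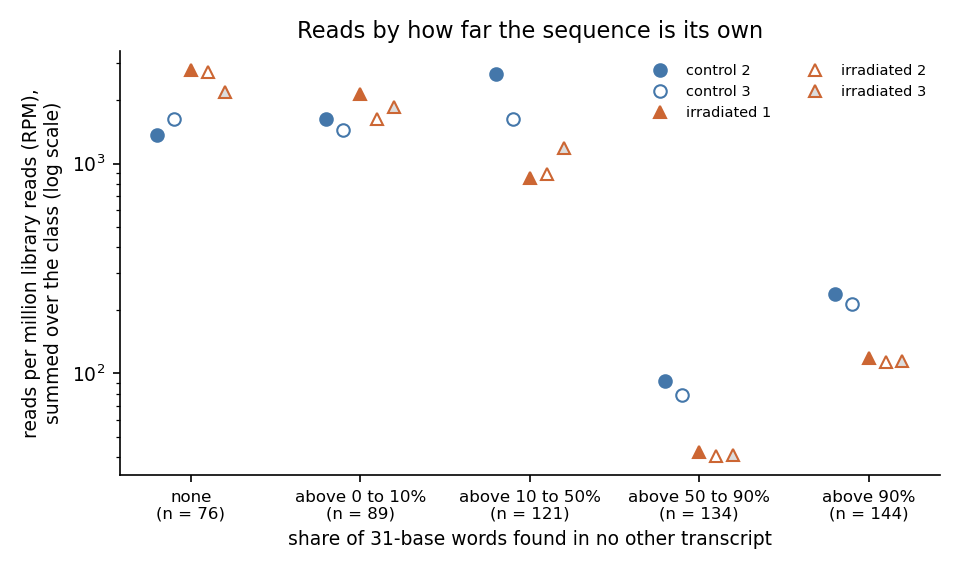
Reads scaled to the library total (RPM) and summed over each class of pseudogenes (vertical axis, logarithmic), by the share of 31-base words found in no other transcript (horizontal axis, n pseudogenes per class), with a symbol per library (blue circles for controls, orange triangles for irradiated libraries). The irradiated libraries lie above the controls in the class without own words (2205 to 2792 against 1372 and 1629) and below them in both classes above 50%. In the class above 0 to 10% the groups overlap (1638 to 2151 against 1640 and 1440). The class from 10 to 50% is carried by Gm48368, without which its libraries overlap at 214 to 281.

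Irradiated and control libraries were compared over all genes with edgeR's quasi-likelihood test and Benjamini-Hochberg adjustment, and a gene was called at a log2 fold change beyond 1.5 and an adjusted p under 0.05. Of 14106 genes tested, 3.53% were called, 1.63% higher and 1.9% lower. Of the 564 pseudogenes, 308 passed the filter on low counts, and 13 of these were called higher and 40 lower. A pseudogene that passed only through the group in which it was high had to differ, so these numbers are given as a description. The median log2 fold change of the 308 was −0.56 (−0.60 with the 19 that had a group at 0 set to their bounds), against 0.02 over all genes tested. The groups did not overlap for 185 of the 308, near the 59.4% of all genes tested. Mean transcript length per read moved with the groups, as given above, and with each library's trend with length removed 5 pseudogenes were called higher and 27 lower, against 0.206% and 0.624% of all genes. Its part in the result was otherwise not tested. The numbers also rested on control replicate 3 and control replicate 2, with 27 higher and 78 lower without the former and 7 higher and 9 lower without the latter.

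Rps16-ps2 and Rps23-ps1, copies of ribosomal protein genes, were among the pseudogenes called higher. Rps16-ps2, which lies in an intron of Adgrd1 on the opposite strand, went from 1147 and 1075 reads to 3249, 2951 and 2694 reads (log2 fold change 1.58 ± 0.18, edgeR adjusted p = 0.00825). Its parent Rps16, of the small ribosomal subunit, was also called, from 3066 and 2772 to 8229, 8423 and 6874 reads (1.60 ± 0.21, adjusted p = 0.00825). Rps23-ps1 rose from 1840 and 1728 to 5177, 4345 and 4177 reads (1.52 ± 0.18, adjusted p = 0.00825), and Rps23 had a log2 fold change of 1.15 ± 0.22, under the fold threshold. Tpt1-ps3, copied from the gene of the translationally controlled tumour protein, rose from 1817 and 1516 to 3296, 4422 and 5078 reads (1.52 ± 0.21, edgeR adjusted p = 0.00849), against a log2 fold change of 0.61 ± 0.18 for Tpt1. Its share of the reads of the pair was 6.9% and 7.4% in the controls and 11.3%, 13.6% and 12.7% in the irradiated libraries. Gm12751, a copy of the RNA polymerase subunit gene Polr1d, held 0 reads in both controls and 64, 62 and 82 in the irradiated libraries, at least 25.6-fold higher, and Gm12481, which matches Serf2 outside its coding part, held 0 and then 46, 90 and 41 reads, at least 22.7-fold higher. The parents of both were read in the controls, Polr1d at 1119 and 1170 reads and Serf2 at 2328 and 3518. Gm6741 and Gm6565 were called higher although irradiated replicate 3 was at 0 like the controls, so their groups overlap. With each library's trend with transcript length removed, the log2 fold changes of Rps16-ps2, Rps23-ps1 and Tpt1-ps3 were 1.09, 1.04 and 0.95 and none was called, and Rps23-ps1 was not called with the replicate block either (1.43).

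Among the pseudogenes called lower, besides Gm10052 and Gm2223, AC134468.1 went from 214 and 172 reads to 24, 24 and 22 (log2 fold change −2.87 ± 0.36, edgeR adjusted p = 0.00825). Its parent Usp9x, the gene of a deubiquitinase, also had lower reads, 10564 and 7954 against 4132, 2941 and 4892, with −1.07 ± 0.18 under the fold threshold. Gm48415 went from 488 and 360 to 82, 80 and 141 reads (−1.93 ± 0.28, adjusted p = 0.00877), and its best protein-coding match, Gm21833, was listed at 0 reads in 4 libraries and at 2 in irradiated replicate 3. Its nearest transcript of any type, of Gm17131 at 97.7% identity, was read in every library, at 84 and 24 reads in the controls and 26, 28 and 10 in the irradiated libraries. Gm18588, a copy of Osbpl9 of the oxysterol-binding family that lies in an intron of Ift80 on the same strand, held 74 and 47 reads in the controls and 0 in the irradiated libraries, at least 17.9-fold lower, whereas Osbpl9 had a log2 fold change of 0.26 ± 0.16 (edgeR adjusted p = 0.266). Of the 40 called lower, 16 had over 50% own words, a share near that among those tested (114 of 308), as had 1 of the 13 called higher, and 11 of the 40 and 11 of the 13 were near-identical to their parent. Near-identical coding copies alone made up 133 of the 308 tested, 9 of the 40 and 10 of the 13. Of the 343 parent genes, not all of which passed the filter on low counts, 11 were called higher and 3 lower. Among all genes tested, 1.63% were called higher and 1.9% lower. A parent with the same call was found for 8 of the called pseudogenes. With each pseudogene's reads added to its parent and the whole table fitted again, 9 of the sums for these 343 parents were called higher and 7 lower. Of all rows of that table, 1.58% were called higher and 1.79% lower.

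**Figure D4:**
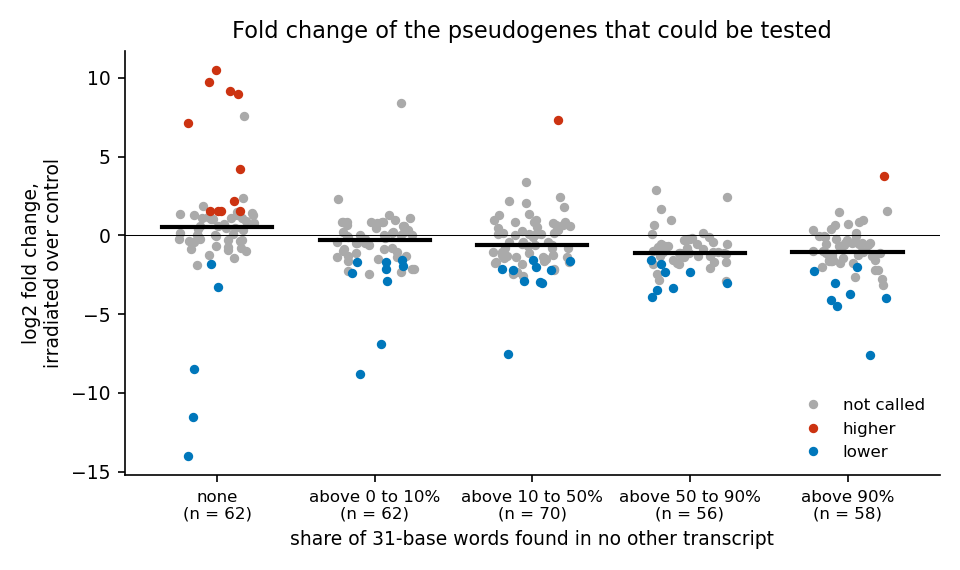
Log2 fold change of irradiated over control (vertical axis) of the 308 pseudogenes that could be tested, by the share of 31-base words found in no other transcript (horizontal axis). Each point is a pseudogene, red if called higher, blue if called lower and grey if not called, spread sideways for view. Black bars are medians, at 0.52 without own words, −0.32 above 0 to 10%, −0.63 from 10 to 50%, −1.12 from 50 to 90% and −1.02 above 90%. Of the 62 tested without own words, 11 were called higher and 5 lower, and of the 62 with above 0 to 10%, 0 and 9. Of all genes tested, 1.63% were called higher and 1.9% lower. Points beyond about 7 in size have a group at or near 0 and depend on the prior count of the fit.

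Near-identical coding copies that were read in all 5 libraries allowed pseudogene and parent to be set side by side. There were 76, of which 75 had a parent with a value, and their median log2 fold change was 0.50 against 0.65 for the parents. Of the 75, 50 lay within 0.5 of the log2 fold change of the parent, and the median of pseudogene minus parent was −0.21. These pairs share reads between identical stretches, so the 2 values are not independent measurements. Among those far from the parent, chosen after their values were seen, were Prkcz2 (−1.64 against 0.17 for Prkcz, an atypical protein kinase C gene) and Gm14048 (−1.60 against −0.18 for the proteasome gene Psmd11). Ndufb4c, a copy of a gene of respiratory complex I, went from 46 and 118 to 388, 340 and 280 reads (2.19 ± 0.44, edgeR adjusted p = 0.013) against 1.12 for Ndufb4.

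**Figure D5:**
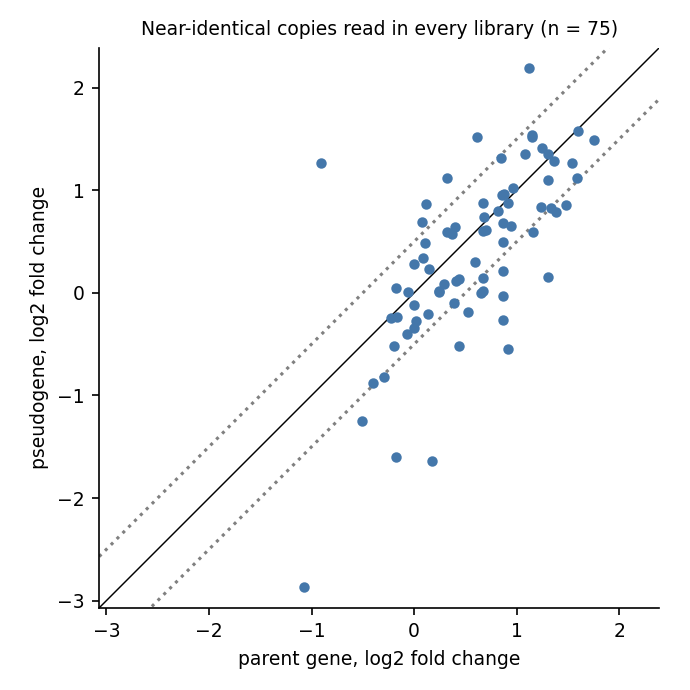
Log2 fold change of irradiated over control for 75 near-identical copies read in all 5 libraries (vertical axis) against that of the parent gene (horizontal axis). The solid line marks equal values and the dotted lines a difference of 0.5, within which 50 points lie.

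Grouped by the role of the parent, ribosomal protein copies were the largest family, with 103 pseudogenes of which 47 were near-identical and 59 were on in 1 library and off in another. Their summed reads were 1104 and 1341 RPM in the controls and 2881, 2578 and 2139 in the irradiated libraries. Of the 45 tested, 2 were called higher and 4 lower (1.63% and 1.9% of all genes), with a median log2 fold change of 0.60. Among those called lower, Gm43850, Gm15497 and Gm16111 had over 50% own words, and their parents had log2 fold changes of 1.14 (Rps6) and 1.32 (Rpl17, the parent of Gm15497 and Gm16111). Gm43850, for example, held 49 and 16 reads in the controls and 0, 4 and 1 in the irradiated libraries. Of the 24 copies of glycolytic genes, 19 matched Gapdh. Of the 15 of this family that were tested, 2 (Pgam1-ps2 and Gm2606) were called higher and 1 (Gm17022) lower, against the same shares of all genes. Gm17022 has 88.7% own words and went from 57 and 55 to 4, 6 and 8 reads (log2 fold change −3.05 ± 0.61, edgeR adjusted p = 0.013), while Gapdh had a log2 fold change of 0.87. Of the 16 copies of RNA-binding protein genes, 7 were tested. Of these, 3 were called lower, against 1.9% of all genes and 40 of the 308 pseudogenes tested. The 3 were Gm10052, Gm17841 (a copy of the nucleolin gene Ncl) and Gm3257 (a copy of the spliceosome gene Snrpb). The genes of this paragraph that were called are named here for their group and were chosen after their values were seen, apart from Gm10052.

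A second large family matched no coding sequence. On the same strand, the best match of 52 pseudogenes among protein-coding genes was a stretch outside the coding part of a vomeronasal receptor gene. These genes are a pheromone receptor family of sensory neurons, and 43 of the 52 pseudogenes shared the match to Vmn2r79. Among transcripts of any type, the nearest for 31 of the 52 was Gm17131, an unprocessed pseudogene with 84 and 24 reads in the controls and 26, 28 and 10 in the irradiated libraries. Together the 52 held 162 and 125 RPM in the controls and 48.3, 50.8 and 68.8 in the irradiated libraries. Of the 36 tested, 34 matched Vmn2r79. By edgeR 7 of the 36 were called lower, against 1.9% of all genes and 40 of the 308 pseudogenes tested. Gm48493 had the most reads of those 7, 656 and 630 in the controls and 227, 98 and 272 in the irradiated libraries (log2 fold change −1.57 ± 0.32, edgeR adjusted p = 0.013, chosen after its values were seen). Vmn2r79 itself held 69 and 52 reads in the controls and 22, 13 and 14 in the irradiated libraries. The 43 share sequence with each other and are not independent of one another.

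The single pseudogene with the most reads, Gm48368 on chromosome 12, was named after its values were seen. It held 76201 and 36393 reads in the controls and 14315, 12923 and 25536 in the irradiated libraries (log2 fold change −1.53 ± 0.31, edgeR adjusted p = 0.0132). Its best protein-coding match on the same strand, to Noct, lay outside the coding part. Its nearest transcript of any type was one of D10Wsu102e, which matched it on the opposite strand at 92.2% identity over 1852 bases and held 292901 and 152318 reads in the controls and 64083, 60052 and 108405 in the irradiated libraries. Gm48368 held 26, 23.9, 22.3, 21.5 and 23.6 reads for every 100 of that transcript in the 5 libraries, so both followed the same order of libraries. Pseudogenes that lie in introns on the opposite strand numbered 11 lower and 3 higher of 44 tested (median log2 fold change −1.21), and those in introns on the same strand 3 lower and 1 higher of 38 tested (median 0.10), against 1.9% lower and 1.63% higher of all genes. All 308 pseudogenes tested had 40 lower and 13 higher. Those that touched no other annotated gene had 21 lower and 5 higher of 192 tested. The difference between the classes was not tested. The sources used here do not state whether the libraries keep strand, and reads of overlapping genes on opposite strands cannot be told apart without it.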

How the data were processed

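Bulk RNA of KP1 cells was sequenced in 2 control and 3 irradiated libraries. The authors quantified the reads with Salmon 0.8.2 at default settings against mm10 (version and build per the labels) and deposited, for each transcript, estimated counts of reads (fractional and without any scaling), the TPM, and length and effective length in bases. The annotation release of their index is not given in the sources used here. Identifiers without version suffix were matched to GENCODE M21, and 112762 of 113116 transcripts matched (99.7%). The study's comparison used DESeq2 1.22.2.

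The pseudogenes, the gene lists and the tests were chosen with earlier results of these data known. Parents and near-identical copies were found with blastn 2.17.0 among GENCODE M21 transcripts, taking matches on the same strand only. The 31-base words were compared on both strands with the other M21 transcripts. Estimated counts were summed per gene, rounded and fitted with edgeR 4.0.16 in R 4.3.3 (filterByExpr, TMM, quasi-likelihood test, no block, common dispersion 0.0542), with the study's thresholds. TPM served only to compare levels between genes. An exact two-sided permutation test of 2 against 3 libraries cannot give a p below 0.1, so adjusted p values rest on the spread shared across genes. Named pseudogenes were Gm10052, Gm2223 and Rps16-ps2, the 6 with the highest mean TPM, the 10 with the most reads among those with 100 reads in a library and 0 in another, and in each direction the 5 called with the smallest p and groups that do not overlap, with their parents. Others are marked. Where a group was at 0 its fold is a bound against 3 reads per library, which covers counting error only. Scripts were tested on simulated counts. Alternatives were DESeq2 1.42.0, other normalization, no filter, a transcript length offset, a replicate block, the transcript as the unit, a log2 fold change of 1, other minimums of reads and each library left out in turn. Single-cell libraries were not used here. A called pseudogene and its parent are not reported here.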

Additional observations from a re-analysis of the deposited data

How the results depend on the processing

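For the 24 named pseudogenes, 274 of 334 values under the alternatives kept their direction and their side of the threshold, 35 kept only the direction and lost the call, 9 gained one, and 16 changed sign. The numbers of pseudogenes called (13 higher and 40 lower) were 27 and 69 without a filter on low counts and 27 higher at a log2 fold change of 1. With the transcript length offset, 5 were called higher. With each transcript fitted on its own, edgeR called 0 higher and 0 lower of 296, with 44 higher and 37 lower at an unadjusted p under 0.05 and a smallest adjusted p of 0.0893. DESeq2 gave 16 and 49. With 1 library left out, the numbers ran from 6 to 27 higher and from 9 to 78 lower. For the parents (11 higher, 3 lower) they ran from 1 to 33 and from 0 to 8, and for the sums of pseudogene and parent (9 and 7) from 1 to 34 and from 2 to 15. The highest values came without control replicate 3 and the lowest without control replicate 2 or irradiated replicate 2. Leaving out a control leaves 1, which is assumed to vary like the other libraries. Without a filter 1 parent was called lower. With the length offset 1 parent was called in each direction, and 1 sum higher and 4 lower. The cause of these shifts was not tested.

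Numbers 2 and 3 occur in both groups, and the deviations of libraries with the same number correlated at −0.196 across genes. This value gave no sign of pairing. It rests on numbers 2 and 3 only, so it cannot exclude that libraries with the same number belong together. With the replicate number as a block, 12 pseudogenes were called higher and 17 lower, and 4 sums lower. With the block and the length offset together the numbers were 0 and 2 for pseudogenes, 0 and 0 for parents and 0 and 0 for sums. A block with crossed numbers, added once the data had been seen, gave 17 higher and 30 lower.

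The number of pseudogenes on in 1 library and off in another (287) was 40 with 50 reads as the minimum for on, 180 with reads scaled to the smallest library, and 122 to 260 with 1 library left out, the lowest without control replicate 2. With 20 reads as the minimum, 327 pseudogenes remained.

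Signs changed for 5 named pseudogenes. Gm12895 (log2 fold change −0.05) was at 0.08 with the block, 0.03 with block and length offset, 0.07 with the crossed block, 0.19 as a transcript and −0.58 to 0.85 with 1 library left out (0.85 without control replicate 2, 0.13 without irradiated replicate 2). Rps13-ps1 (0.15) was at −0.38 with the length offset, −2.84 with the block, −3.13 with both, −2.12 with the crossed block and −1.34 to 0.73 with 1 library left out, the ends being without irradiated replicates 1 and 2. Gm15500 (1.02) was at −14.25 as a transcript and −14.37 with its transcripts split, values that depend on the prior count. Rps2-ps10 (0.48) was at −0.18 with the length offset and −0.14 with block and offset. Ppp1ccb (−0.94) was at −1.59 to 0.39 with 1 library left out, the highest without control replicate 3. The values of Rps2-ps10 and Ppp1ccb are for the gene as a whole and include its other transcript.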
